A study of Mus musculus with 5 samples.

Results

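RNA recovered from mouse brain RNA by the protein MA-Brent-1 was set against the RNA that entered the binding reaction. The bound side held 4 samples, 2 eluted from the deiminated protein and 2 from the non-deiminated protein, out of 5 samples in all. The remaining sample was the starting RNA with no binding step, called input here. The sample labels give the source of all 5 as brain and the species as Mus musculus, and they state no strain, age, sex or genotype. All 5 were labelled with biotin and hybridised to Affymetrix mouse expression arrays of 45101 probe sets. The binding was done in vitro, so a bound transcript was one found in an eluate made from extracted RNA outside a cell. Some titles name the protein REFP2. A title marks 1 eluate as a biorepeat, and the origin of the other repeats was not stated in the labels. Pooling the eluates asks what was eluted from either form of the protein. It does not compare the forms.

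REF proteins, of which Aly is the best known, are RNA-binding adaptors of the TREX complex that couple splicing of a pre-mRNA to its export by the receptor Nxf1. They contact RNA through arginine-rich regions beside an RNA recognition motif. Deimination, catalysed by peptidylarginine deiminases, converts arginine to citrulline and removes its positive charge.

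The signals of a probe set are linear MAS5 intensities in arbitrary units, which depend on the probes as well as on the amount of RNA. The median signal over the 45037 non-control probe sets was 29.8, 37.5, 30.5 and 41.4 on the bound arrays, in the order deiminated replicates 1 and 2 and non-deiminated replicates 1 and 2, and 102 on the input array. Control probe sets took 1.40% to 6.35% of all signal on the bound arrays and 45.8% on the input array. The input array therefore stood apart in scale before any gene was compared. For this reason each level is also given as a percentile rank, the position of a probe set among the 45037 on its own array. The input group was 1 array, so no spread between input samples was measured, and every difference below rests on that array.

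A second property of the input array bears on each result. Among 3369 genes with exactly 2 probe sets kept by the filter on low signal, the ranks of the 2 probe sets correlated across genes with Spearman's rho of 0.200, 0.195, 0.216 and 0.185 on the 4 bound arrays and -0.00057 on input. With no filter, over 4695 genes, rho was 0.308, 0.302, 0.322 and 0.276 on the bound arrays and 0.0478 on input. The median gap between the 2 ranks was 15.3 to 17.0 percentile points on the bound arrays and 27.6 on input. Probe sets of the same gene thus shared rank on the eluates more than on input, where they shared almost none. Whether the deposited input values are intact and assigned to the right probe sets was not tested, and each difference from input below depends on it. Genes are not independent replicates, and these correlations are descriptions of 5 arrays. The input array did still rank some brain markers high, but not all. The median percentile there was 88.6 for 25 neuronal, 88.6 for 15 astrocyte and 80.5 for 13 oligodendrocyte markers. It was 87.5 for 3 red blood cell, 70.0 for endothelial, 60.5 for choroid plexus and 51.1 for microglial markers. Those of the liver, testis, pancreas and skeletal muscle markers on the array were 53.1, 44.2, 29.2 and 32.6. Each gene was read at its brightest probe set, which can favour lists with more probe sets per gene. Since most arrays are eluates, it can also favour the level in the eluates over that on input.

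The 4 eluates ranked the probe sets alike and unlike input. Spearman's rho across all 45037 probe sets was 0.851 to 0.940 between bound arrays and 0.390 to 0.413 between each bound array and input. On all 4 bound arrays 3644 probe sets lay in the top decile of signal. Of these, 1995 (54.7%) were also in the top decile on input, and 409 (11.2%) were below the input median. Read from the other side, the top decile on input held 4504 probe sets, of which 44.3% were in the top decile on all 4 bound arrays and 248 (5.51%) were below the median on all 4. Between pairs of bound arrays the top deciles shared 85.9% to 93.3% of their members. The eluates thus shared more of their brightest probe sets with each other than with input.

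**Figure D1:**
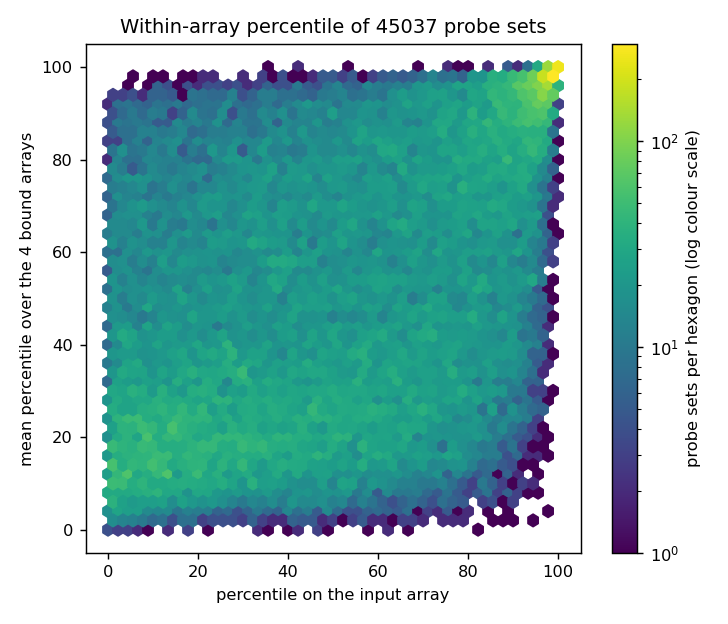
Percentile rank of each of 45037 probe sets on the input array (horizontal axis) against its mean percentile rank over the 4 bound arrays (vertical axis), with the number of probe sets per hexagon on a log colour scale. The densest corner is at high rank on both axes, and the top left holds probe sets such as the 409 that were in the top decile of every bound array and below the input median.

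The signal of the bound pool was spread over more probe sets at the very top than that of input. The 100 brightest probe sets carried 9.79%, 15.5%, 8.51% and 17.0% of the non-control signal on the bound arrays and 27.8% on input. Over the 1000 brightest the shares were 45.7%, 51.9%, 41.9% and 53.9% against 49.0%, and these ranges overlap. Deiminated replicate 1 and non-deiminated replicate 1 had the smaller shares at both depths. At the dim end, the lower 50% of probe sets carried 2.03% to 2.54% of bound signal and 6.25% of input signal.

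The brightest genes of the bound pool were abundant brain and housekeeping transcripts, and of the 12 brightest only Cpe and Hint1 differed from input by limma at that probe set. They were, by the brightest probe set of each, Rps29, Mbp, Ttr, Nsmf, Cpe, Stmn3, Tuba1a, Hint1, Klf9, Cox6a1, Pebp1 and Hspa8. Rps29, a protein of the small ribosomal subunit, had signals of 15839, 34600.0, 12328 and 45159.6 on the bound arrays and 47322 on input. Mbp, the myelin basic protein of oligodendrocytes, had 14068, 33403, 10834 and 42152 against 31935. For both, the input signal was inside or just above the range of the eluates, and the limma differences of -1.01 ± 0.70 and -0.57 ± 0.71 did not pass (adjusted p = 0.23 and 0.51). The error after ± is limma's standard error with 4 bound samples against 1. At other kept probe sets, Rps29, Stmn3, Klf9, Cox6a1 and Pebp1 had higher calls, Nsmf a lower call and Mbp calls in both directions.

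Cpe and Hint1 were brighter in the eluates. Cpe, carboxypeptidase E of neuropeptide processing, had signals of 11392, 31732, 9198 and 30555 on the bound arrays against 3529 on input, a log2 difference of 2.34 ± 0.67 (adjusted p = 0.013). Its second probe set went the other way, with 84.3, 119, 38.2 and 85.0 against 647. Hint1, a purine nucleoside phosphoramidase, was higher at both of its probe sets. The brighter gave 13183, 23875, 10706 and 25807 against 4719, a difference of 1.86 ± 0.53 (adjusted p = 0.013), and the dimmer 1075, 872, 1314 and 1061 against 214 (2.30 ± 0.30, adjusted p = 0.00015). Ttr, transthyretin of the choroid plexus, had 12881, 34919, 10627 and 40570.5 against 7998. The eluates all exceeded input, yet the spread among them was wide and the difference of 1.39 ± 0.71 did not pass (adjusted p = 0.11). Ttr was called higher at other probe sets, by 3.22 ± 0.35 (adjusted p = 4.3e-05) and 1.17 ± 0.31 (adjusted p = 0.0087). Its remaining probe set (1.34) did not pass.

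A core of 303 genes had its brightest probe set in the top 2% of all 5 arrays. The 8 with the highest floor in rank were Rps29, Nsmf, Mbp, Stmn3, Pebp1, Gpm6a, Klf9 and Ppp2r1a. Gpm6a, a neuronal membrane glycoprotein, had 11850.0, 17929.9, 9650.1 and 22603 on the bound arrays and 28353 on input. Ppp2r1a, the scaffold subunit of protein phosphatase 2A, had 12176, 20234, 8765 and 24979.6 against 59404, with a percentile of 99.88 or above on all 5 arrays. Its log2 difference of -1.96 ± 0.59 passed (adjusted p = 0.015) while its rank hardly moved. A log2 difference at the top of an array can thus be large where the rank is fixed. Probe sets whose names end in _x_at, which can bind transcripts of other genes, made up 40% to 43.1% of the 450 brightest on the bound arrays, 46.9% on input and 5.42% of all.

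Across the 27022 probe sets kept, 7677 (28.4%) were called higher and 8528 (31.6%) lower in the eluates, by limma at a Benjamini-Hochberg adjusted p under 0.05. By the brightest probe set of each of 13055 genes, 4348 (33.3%) were higher and 3469 (26.6%) lower. The median log2 difference was -0.20 over probe sets and 0.12 over genes. The brightest probe set was chosen over arrays that are mostly eluates, so the choice can favour probe sets that are bright in the eluates. The gene counts therefore lean towards higher calls by construction, and how much of the shift from probe sets to genes this made was not tested. No label says that the samples came from separate animals, so the p-values reflect a spread that may be technical, and they assume that input would vary like the eluates. The balance of directions depended on the scale. Of all calls, 47.4% were higher on the deposited scale, 64.1% after quantile normalisation, 67.1% on percentile ranks, 87.1% after median centring and 100% after scaling to the hybridisation controls. There the median difference became 5.25, 0 probe sets were lower by limma and 0 were lower at an unadjusted p under 0.05. The median was 0.49 after quantile normalisation and 1.25 after median centring. Without the filter on low signal 30.6% of calls were higher, and with a stricter filter 62.1%.

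Requiring the probe sets of a gene to agree left far fewer genes. Of 5643 genes with at least 2 kept probe sets, 469 (8.31%) had all of them called higher and 346 (6.13%) all called lower. Another 1424 (25.2%) had probe sets called in both directions. Among the 2274 genes with 3 or more kept probe sets, 90 (3.96%) were all higher and 39 (1.72%) all lower. Percentile rank rose at every kept probe set on all 4 bound arrays in 437 (93.2%) of the 469, and fell likewise in 293 (84.7%) of the 346.

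Agreement within a gene was close to what the separate calls gave. In the 3369 genes with exactly 2 kept probe sets, 51.6% had differences of the same sign, with 50.1% of the probe sets positive. The partner of a probe set called higher was itself called higher in 35.7% of cases, where 31.5% of all these probe sets were higher. The partner of one called lower was called lower in 33.0%, where 27.6% were. Both were higher in 379 genes and both lower in 307, and 504 had opposite calls. With no filter the differences had the same sign in 58.2% of 4695 genes. Agreement of 2 probe sets therefore added little to a call in this comparison, and the genes named below are described by their values, not by their count.

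**Figure D2:**
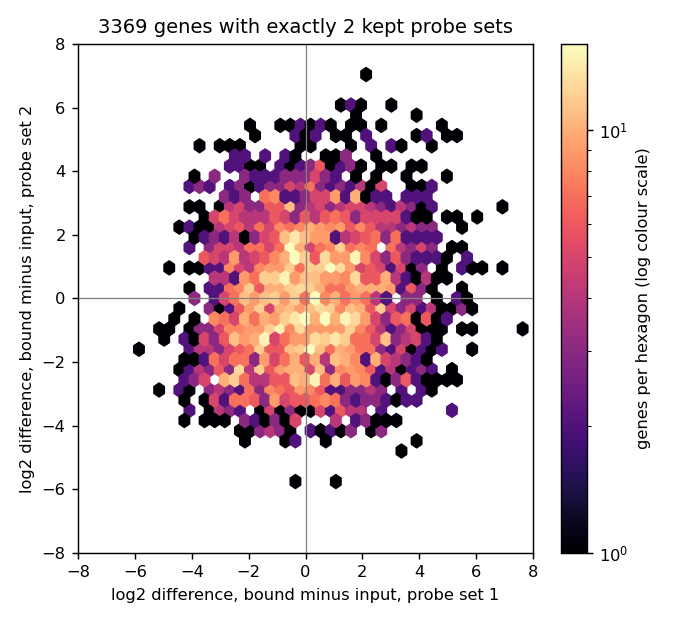
Log2 difference (bound minus input) at one probe set of a gene against that at its other probe set, for 3369 genes with exactly 2 kept probe sets, with genes per hexagon on a log colour scale. The cloud is nearly round about the 2 axes, and 51.6% of genes lie in the quadrants where both differences have the same sign.

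Among genes whose probe sets were all higher, the largest differences at the weaker probe set mostly belonged to genes near the bottom of the input array. These genes were chosen for large differences and for a rank above input on every bound array. That the eluates lay above input was therefore built into the choice. The filter was a mean log2 signal of 4.89. At the weaker probe set, input was under it for Stx12 (4.25), Cnih4 (3.50), Armcx3 (4.18), Poldip2 (3.67), Vps29 (3.79) and Kcna2 (4.02). Those were kept only through the eluates, so their calls were built in. The same held at another kept probe set of Septin4, Tanc2, Rgs4, Srp72 and Fam8a1. Only Park7 was above the filter on input at every kept probe set. Septin4, a GTP-binding septin, had signals of 1058, 838, 1013 and 941 on the bound arrays and 20.7 on input at one probe set. At the other it had 1159, 1069, 875 and 1335 against 31.0. The log2 differences were 5.28 ± 0.29 and 4.97 ± 0.31 (adjusted p = 9.6e-07 and 1.6e-06), the second being 31.3-fold, and all eluates lay far above input. Its rank was 94.0 to 96.2 in the eluates and 29.7 on input at the second probe set.

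Products of Stx12, Cnih4, Srp72 and Vps29 serve membrane traffic and secretion. Stx12, an endosomal SNARE protein, had 635, 645, 630.0 and 412 against 14.8 at its weaker probe set, a difference of 4.92 ± 0.35 (adjusted p = 2.8e-06). Cnih4, a cornichon protein that helps cargo leave the endoplasmic reticulum, had 247, 228, 305 and 381 against 7.11 (4.68 ± 0.40, adjusted p = 8.9e-06). Srp72, a subunit of the signal recognition particle, had 556, 432, 497 and 711 against 31.7 (3.92 ± 0.34, adjusted p = 1e-05). In each of these 3 genes every eluate was far above input. Vps29, a subunit of the retromer, was higher at 3 kept probe sets, with differences of 4.09, 5.05 and 4.54. Its other probe sets were below the filter and not tested, with bound signals of 1.27 to 39.3 against 21.2 and 0.767 to 19.5 against 89.3.

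Products of Rgs4, Kcna2 and Tanc2 act in neuronal signalling. Rgs4, which speeds GTP hydrolysis by G proteins, had 946, 667, 1008 and 610.4 against 40.8 at its weaker kept probe set (4.14 ± 0.35, adjusted p = 8.3e-06). Kcna2, a voltage-gated potassium channel subunit, had 187, 321, 172 and 348 against 12.1 (3.94 ± 0.46, adjusted p = 7.5e-05). Tanc2, a postsynaptic scaffold protein, had 622, 819.6, 678 and 412 against 25.7 (4.37 ± 0.38, adjusted p = 9.8e-06). Each of these 3 also had dim signal at probe sets below the filter, which did not share the rise. Input was above every eluate for Tanc2 (15.9 to 27.6 on the bound arrays against 68.8) and Rgs4 (2.67 to 15.4 against 22.3). Kcna2 had 3.04 to 31.3 against 66.1 at such a probe set and 8.01 to 20.9 against 17.0 at another.

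Armcx3, a protein of the mitochondrial outer membrane, and Poldip2, a partner of DNA polymerase delta, differed by 4.37 ± 0.51 and 4.11 ± 0.43 at their weaker probe sets (adjusted p = 6.9e-05 and 3.7e-05). Fam8a1 and Park7 were the members of the 12 with the highest input signal. Park7, the redox-protective protein DJ-1, had 1671, 1867, 1709 and 1672 on the bound arrays and 133 on input at its weaker probe set, near the middle of the input array (percentile 56.3) and at 96.8 to 97.2 in the eluates. The eluates differed little from each other, and the difference was 3.65 ± 0.27 (adjusted p = 3.6e-06). Fam8a1 had 4577, 6013, 3989 and 4997 against 351 at its brighter probe set (3.77 ± 0.32, adjusted p = 9.4e-06). Of the 12, all but Tanc2, Rgs4, Vps29 and Kcna2 stayed higher at every probe set under each of the 15 alternatives tried, as did 175 (37.3%) of the 469.

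**Figure D3:**
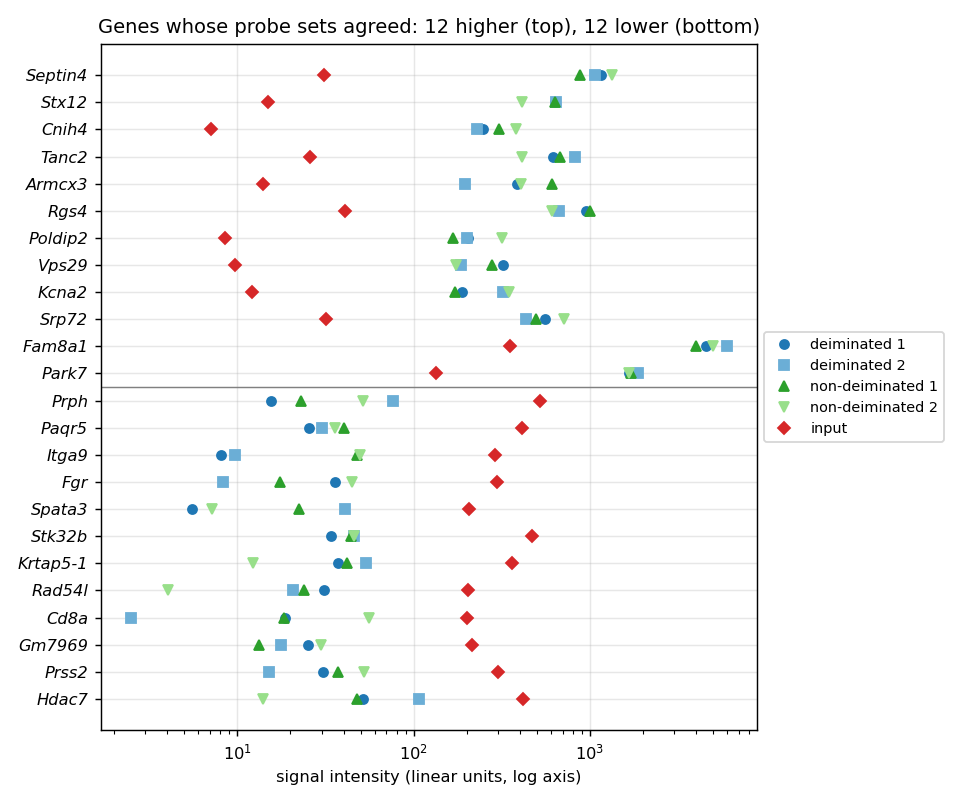
Signal on each of the 5 arrays (log axis) at the weakest probe set of the 12 genes with the largest agreeing rise (above the line) and the 12 with the largest agreeing fall (below it). The bound arrays do not overlap input in any of the 24 genes, which follows from the rule that chose them and is not a separate result. In the lower panel the bound signals are mostly under 100 and scattered, and the input signals lie between about 199.6 and 519.

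The 12 genes with the largest agreeing fall ranked below input on every bound array at their kept probe sets, as the rule that chose them required. Their mean percentiles in the eluates were 32.1 to 54.6. The call of a probe set whose bound mean alone was under the filter was built in, since it was kept only through its input signal. Of these 12 genes, Hdac7 and Krtap5-1 were kept by their bound signal at every kept probe set. Prph, Paqr5, Stk32b and Prss2 were kept by it at the weaker probe set and only through input at the other. Itga9, Fgr, Spata3, Rad54l, Cd8a and Gm7969 were kept only through input at every kept probe set, so all their calls were built in. In all, 5969 (70.0%) of the 8528 probe sets called lower reached the filter by their bound mean, as did every kept probe set in 184 (53.2%) of the 346 genes. Prph, the intermediate filament peripherin of peripheral neurons, had 15.4, 76.5, 23.0 and 51.3 on the bound arrays and 519 on input at its weaker probe set (-3.74 ± 0.73, adjusted p = 0.0019). Stk32b, a serine/threonine kinase, had 33.9, 45.6, 44.4 and 45.9 against 467 (-3.35 ± 0.47, adjusted p = 0.00025). Paqr5, a membrane progestin receptor, had 25.4, 30.4, 40.4 and 35.8 against 411 (-3.50 ± 0.52, adjusted p = 0.00038). At these probe sets the eluates of Stk32b and Paqr5 lay close together, and those of Prph spread over several fold. At their other kept probe sets, kept only through input, the bound signals spread more, with 26.9, 2.78, 21.2 and 38.1 for Stk32b and 15.6, 2.28, 22.7 and 27.0 for Paqr5.

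Prss2, Cd8a, Krtap5-1 and Spata3 are known mainly from tissues other than brain. Prss2, a pancreatic trypsinogen, had 30.6, 15.1, 37.2 and 52.4 against 303 (-3.12 ± 0.65, adjusted p = 0.0026). Cd8a, a co-receptor of T cells, had 18.6, 2.47, 18.3 and 55.4 against 199.6 (-3.26 ± 1.02, adjusted p = 0.019), a call that was built in. Krtap5-1, a keratin-associated protein of hair, had 37.4, 53.4, 41.6 and 12.2 against 360.4 (-3.32 ± 0.70, adjusted p = 0.0027). At these probe sets the bound signals reached percentiles of up to 55.9, 57.3 and 57.8 in turn, and the input signals lay between percentiles 71.0 and 89.5. Spata3, a testis gene with 3 kept probe sets, all kept only through input, differed by -3.46 to -4.15. The rest of the 12 were Itga9 (an integrin subunit, -3.49), Fgr (a myeloid Src-family kinase, -3.48), Rad54l (a recombination protein, -3.29), Gm7969 (a predicted gene, -3.14) and Hdac7 (a histone deacetylase, -3.10), each at the weaker probe set. Among these, only Hdac7 was kept by its bound signal, and the calls of the others were built in. A Gm7969 probe set below the filter gave 12.4 to 33.0 against 6.49, so every eluate was above input. For Cd8a, Rad54l and Paqr5, the mean rank at probe sets below the filter was above input at some and below it at others. For Prph, Itga9 and Prss2 it was below input at each. All 12 turned to positive values, 1.72 to 2.35, after scaling to the hybridisation controls, and none of the 346 all-lower genes was all lower under all 15 alternatives.

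Gene lists were read next. Members are counted by the brightest probe set of each gene, beside 33.3% higher and 26.6% lower for all genes and a median difference of 0.12. The list counts and the counts for all genes share this choice, which can favour the eluates. Whether it did so equally in each list was not tested. Higher calls at probe sets whose input signal alone was under the filter were kept only through the eluates, so they were built in. How many there were was not counted. The 17 lists with a positive median kept it under every scaling tried. Under other alternatives the immediate early genes (0.16) moved to -0.09 with the stricter filter and to between -0.12 and -0.03 without deiminated replicate 1, deiminated replicate 2 or non-deiminated replicate 1, and microglia (0.34) to -0.05 with no filter. All samples came from extracted RNA, so a marker level here describes the eluates relative to the 1 input array. No sample went through the binding step without the protein, so retention by the protein was not separated from other carry-over.

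Markers of neurons and glia were mostly higher in the eluates. Of 25 neuronal markers, 20 were called higher and 1 lower, with a median log2 difference of 1.87 and a median percentile of 95.6 to 96.6 on the bound arrays against 88.6 on input. Snap25, a presynaptic SNARE, had 2520.2, 2938, 2417 and 2279 on the bound arrays and 288 on input (3.12 ± 0.29, adjusted p = 1.4e-05) and was also higher at its second probe set (1.49). Nefl, the neurofilament light chain, rose by 1.87 and 3.12, and Elavl4, a neuronal RNA-binding protein, by 0.97, 1.95 and 1.92. Of the 11 neuronal markers with at least 2 kept probe sets, 4 were higher throughout and 4 had calls in both directions. The call of Elavl4 at its weakest probe set was lost without deiminated replicate 1 (0.97) or non-deiminated replicate 1 (0.85), and that of Nefl after quantile normalisation (0.69) and on ranks.

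Astrocyte markers had the largest median of the cell type lists on the deposited scale. Of 15, 11 were higher and 0 lower by limma (0 at an unadjusted p under 0.05), with a median of 2.66 and percentiles of 97.5 to 98.5 against 88.6. S100b, a calcium-binding protein of astrocytes, had 2588, 2663, 2479 and 2065 against 346 (2.80 ± 0.29, adjusted p = 3e-05), and Glul, glutamine synthetase, rose by 2.14 and 1.37. Of 13 oligodendrocyte markers 8 were higher and 1 lower (median 1.24). Mobp, a myelin protein, had 5431, 6485, 5002 and 5249.7 against 586 (3.22 ± 0.31, adjusted p = 2e-05) and was higher at all 3 kept probe sets, and Mal, a myelin proteolipid, rose by 1.12 and 1.15. Of 10 microglial markers 4 were higher and 0 lower by limma (1 at an unadjusted p under 0.05, median 0.34), a share near that of all genes. The median percentile of the microglial list was 75.5 to 80.7 on the bound arrays against 51.1 on input, a wider gap than for astrocytes. At the weakest probe sets, the call of Glul was lost without deiminated replicate 2 (1.24) and on ranks, and that of Mal without deiminated replicate 1 (0.94), deiminated replicate 2 (1.14) or non-deiminated replicate 1 (1.03).

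Vascular and blood markers did not share that direction. Of 8 endothelial markers 1 was higher and 3 were lower (median -1.47), and of 8 choroid plexus markers 1 was higher and 2 were lower (median 0.21). Cdh5 among the lower endothelial markers and, by a small margin, Aqp1 among the lower choroid plexus markers passed the filter only through input. Their calls were thus built in. The 3 red blood cell genes measured were split, with Alas2 higher and Hba-a1 and Slc4a1 lower. These were named after their values were seen. Markers of tissues that brain should lack were low in the eluates. The median percentile of the 14 liver genes on the array was 15.1 to 32.0 on the bound arrays against 53.1 on input, that of the 15 testis genes 18.9 to 27.3 against 44.2, that of the 10 pancreas genes 21.8 to 34.0 against 29.2 and that of the 13 muscle genes 22.5 to 33.8 against 32.6. Liver and testis markers thus ranked lower in each eluate than on input, while the pancreas and muscle ranges enclosed the input value. Only 4, 4, 3 and 5 genes of these lists passed the filter, so their calls carry no count here. After scaling to the hybridisation controls the negative medians became positive, such as 3.98 for endothelial, 2.84 for red blood cell and 2.69 for liver genes, because that scaling adds the same constant to every difference.

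**Figure D4:**
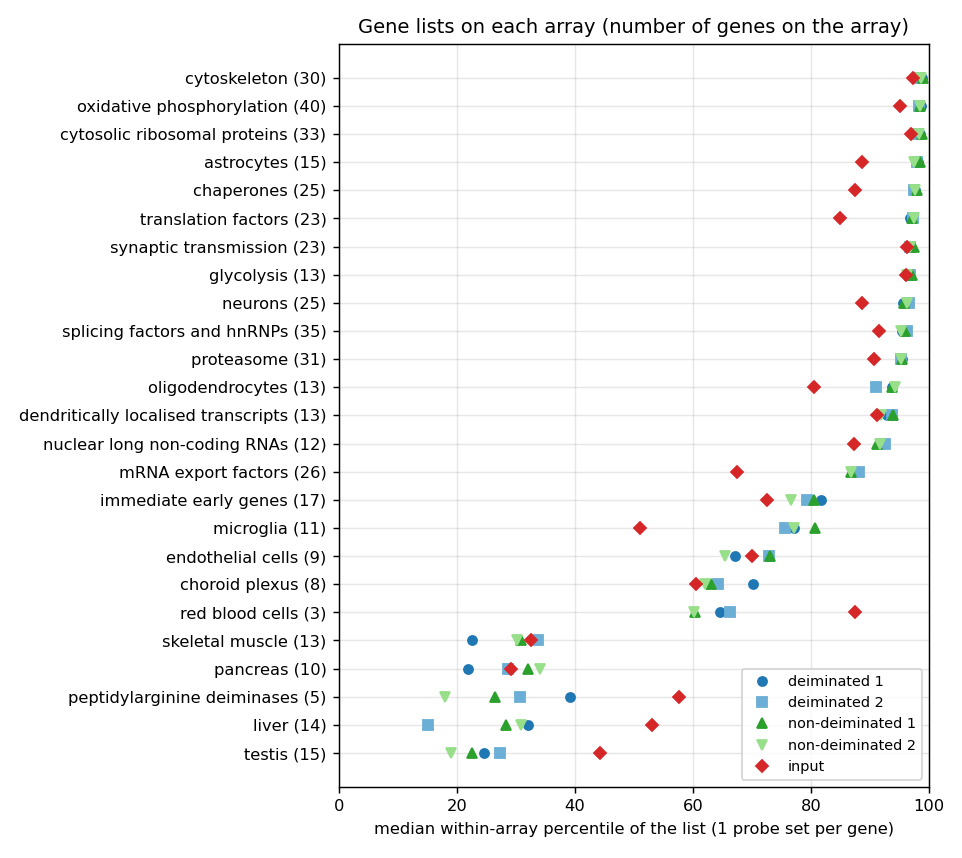
Median within-array percentile of each of 25 gene lists on the 4 bound arrays and on input, with 1 probe set per gene and the number of genes on the array in brackets. Neuronal, astrocyte, chaperone and translation factor lists sit near the top of the bound arrays and several points lower on input, and liver and testis lists sit lower on the bound arrays than on input.

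Housekeeping groups of the cytoplasm were higher in most members. Of 22 translation factors 18 were higher and 2 lower (median 2.57). Eif4a1, the RNA helicase of cap-dependent initiation, had 1689, 1616, 1467 and 2019 against 298 (2.48 ± 0.29, adjusted p = 6.9e-05). Eif3e, an initiation factor subunit, rose by 2.31 to 3.45 over 3 kept probe sets, and Pabpc1, the cytoplasmic poly(A)-binding protein, by 3.05 and 2.05. Of 32 cytosolic ribosomal protein genes 24 were higher and 3 lower (median 1.87). Rps3 had 5240.4, 5797, 5380.0 and 4855 against 775 (2.77 ± 0.30, adjusted p = 4.7e-05), Rps14 rose by 2.56 and 2.71, and Rpl7 by 2.02 to 6.08 over 3 probe sets. Ribosomal protein genes have many processed copies in the genome, and probes may not separate them. The share of all non-control signal in this list was 1.76% to 2.46% on the bound arrays and 2.42% on input, so its summed signal did not follow its median. The brightest member on input was Rps9, at a probe set ending in _x_at, with 4901 to 13737 in the eluates against 138889 (-4.14). The share on input thus leaned on that probe set. The other lower members were Rps27 (-3.68) and Rpsa (-1.65).

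Chaperones were higher in 23 of 25 genes with 0 lower by limma (0 at an unadjusted p under 0.05, median 2.63), and their share of signal was 1.04% to 1.14% in the eluates against 0.412% on input. Cct7 and Cct2, subunits of the TRiC chaperonin, rose at every kept probe set. Cct2 had 3141, 2497, 2395 and 2869 against 317 at its brightest (3.08 ± 0.29, adjusted p = 1.8e-05), and Cct7 had 2304, 3498, 2411 and 2274 against 323 (2.98 ± 0.32, adjusted p = 4.4e-05). Hspa1b, an inducible heat shock protein that is nearly identical to Hspa1a, rose by 3.29 and 2.83, and signal of the pair may be shared between their probes.

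Genes of energy metabolism were mostly higher. Of 40 oxidative phosphorylation genes 28 were higher and 2 lower (median 2.13), with 2.08% to 2.83% of signal against 1.10% on input. Ndufv1, a subunit of complex I, had 4059.9, 3802, 3764 and 3576 against 382 (3.30 ± 0.28, adjusted p = 9.8e-06) and rose by 3.26 and 3.63 at its other probe sets. Cox7a2 of cytochrome c oxidase rose by 3.05 and 2.13 and Atp5o of the ATP synthase by 2.69 and 2.05. Of 13 glycolytic genes 12 were higher and 0 lower by limma (0 at an unadjusted p under 0.05, median 1.60), and Pgk1, phosphoglycerate kinase, had 7715, 11960.5, 6376 and 13455 against 1613 (2.54 ± 0.45, adjusted p = 0.001). The median percentile of the glycolytic list was 96.3 to 97.1 in the eluates and 96.2 on input, so its rank moved little.

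Of 31 proteasome genes 24 were higher and 0 lower by limma (0 at an unadjusted p under 0.05, median 1.75). Psmd6, of the regulatory particle lid, rose by 1.90 and 5.73, and Psmc4, an ATPase of its base, had 2913, 2876, 1757 and 3372 against 496 (2.41 ± 0.37, adjusted p = 0.00041). Of 30 cytoskeletal genes 19 were higher and 3 lower (median 1.67). Kif5c, a neuronal kinesin heavy chain, had 2056, 2416, 2145 and 2607 against 15.9 at one probe set (6.84 ± 0.28, adjusted p = 7.9e-07) and 6067, 10506, 5647 and 8307 against 1052 at another (2.81 ± 0.40, adjusted p = 0.00027). Both put the eluates above input, by very different amounts. Tubb5, a beta-tubulin, rose by 1.99 and 2.02, and Pfn2, a profilin, by 1.87 to 5.07 over 3 probe sets, the weakest of which lost its call on ranks.

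Synaptic genes were mixed. Of 23, 14 were higher and 4 lower (median 1.23), and 8 of the 18 with at least 2 kept probe sets had calls in both directions. Gria1, an AMPA receptor subunit, had 992, 1145, 736 and 1543 against 160.4 (2.70 ± 0.37, adjusted p = 0.00022) and rose by 1.54 at its second probe set. Grin2b, an NMDA receptor subunit, was lower at both kept probe sets, by very different amounts. The larger fall was 183, 420, 147 and 410 against 9178 (-5.11 ± 0.53). The weaker probe set gave 677, 1463, 657 and 1134 against 2168 (-1.22 ± 0.43). Its call was lost on ranks and without the variance trend (-1.22). Its value turned to 0.23 after median centring and 4.23 after control scaling. Of 12 transcripts known to be localised to dendrites 2 were higher and 3 lower (median -0.12, which became 1.34 after median centring), and Cyfip2, a partner of the fragile X protein, rose by 1.17 and 1.35.

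The lists closest to the known work of REF proteins were among the less shifted by median log2 difference. By rank this did not hold for the export factors. Their median percentile was 86.8 to 88.2 on the bound arrays against 67.4 on input, a wider gap than for the neuronal list. That of the splicing factors and hnRNPs was 95.3 to 96.2 against 91.5. Of 25 mRNA export factors 9 were higher and 4 lower (median 0.48), shares of 36.0% and 16.0% beside 33.3% and 26.6% of all genes, and 7 of 17 with at least 2 kept probe sets had calls in both directions. Chtop, an export adaptor that binds the TREX complex, was the member with agreeing probe sets. It had 1174, 1101, 1435 and 813 against 68.8 (3.93 ± 0.33, adjusted p = 9.1e-06) and rose by 2.01 at the dimmer probe set. Of 34 splicing factors and hnRNPs 17 were higher and 5 lower (median 0.97), and 13 of 27 had calls in both directions. Hnrnpa2b1, an hnRNP that binds nuclear and transported RNA, rose at all 4 kept probe sets, by 1.5 to 5.96. Snrpb, a core spliceosomal protein, rose by 4.18 and 1.68, and the weaker call was lost after quantile normalisation (0.65) and on ranks. Ptbp1, a splicing repressor that neurons replace with Ptbp2, had 217, 200.1, 142 and 199.6 against 848 (-2.15 ± 0.34, adjusted p = 0.00051). After control scaling its value was 3.30. Its second kept probe set passed the filter only through input, and its difference (-3.57) adds nothing to the call.

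Of 12 nuclear long non-coding RNAs 4 were higher and 2 lower (median 0.48). Snhg14, the host transcript of an imprinted snoRNA cluster, rose by 4.12 and 3.23, while another probe set below the filter gave 0.421 to 15.4 against 255. Of 15 immediate early genes 3 were higher and 4 lower (median 0.16), and their share of signal was 0.111% to 0.115% in the eluates and 0.400% on input. Jund, a subunit of the AP-1 transcription factor, had 3305, 4555, 3459 and 5636 against 41482 (-3.32 ± 0.39, adjusted p = 7.6e-05). Input was above every eluate. Egr1, another bright member of the list, had 2534 to 4031 on the bound arrays and 2626 on input. The share of the list on input thus leaned on Jund, and the share without Jund was not computed. The dimmer probe set of Jund (-2.60) passed the filter only through input, so its difference adds nothing to the call.

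Alyref, the Aly gene itself, had 30.9, 58.3, 27.8 and 78.7 on the bound arrays and 115 on input at its kept probe set. Its difference of -1.28 ± 0.64 did not pass (adjusted p = 0.11), and it turned to 0.21, 0.18 and 4.17 after quantile normalisation, median centring and control scaling. Without non-deiminated replicate 2 it was called lower (-1.53). No probe set was listed for Alyref2. Of the 5 peptidylarginine deiminase genes, Padi2, the main form in brain, had 213, 261, 269.5 and 310.0 against 220.2 (0.24 ± 0.33, adjusted p = 0.54). The 95% interval of that difference was -0.48 to 0.96, and it was called higher after quantile normalisation (0.88), median centring (1.70), control scaling (5.70) and on ranks. Padi1 was lower (13.1, 47.4, 16.6 and 21.7 against 139, -2.44 ± 0.76, adjusted p = 0.018), but it passed the filter only through input, so that this call was built in. The call was lost after quantile normalisation (-1.06), median centring (-0.98) and on ranks, and the value was 3.01 after control scaling. Padi3, Padi4 and Padi6 were below the filter.

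Some genes had probe sets called strongly in opposite directions, which shows the size of the disagreement within a gene. Hnrnpab, an hnRNP, had 4604, 4623, 4523 and 4972 against 118 at one probe set (5.26 ± 0.28, adjusted p = 9.1e-07). At another it had 708, 804, 713 and 1446 against 22615 (-4.68 ± 0.40, adjusted p = 8.9e-06). The eluates lay close together at each probe set, and input was far below at the first and far above at the second. Tob2, an antiproliferative adaptor of mRNA deadenylation, ranged from -4.70 to 5.56 over 5 probe sets. Naa35, a subunit of an N-terminal acetyltransferase, ranged from -4.34 to 4.77, and Marcks, a substrate of protein kinase C, from -5.00 to 4.26. The most negative probe sets of Tob2 and Naa35 were kept only through input. Mbp had 8 probe sets with differences from -3.34 to 4.0.

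By type of gene, long non-coding RNAs stood below protein-coding genes. Of 483 lncRNA genes by RefSeq type, 53 (11.0%) were higher and 256 (53.0%) lower, with a median of -1.74. Of 12436 protein-coding genes 34.4% were higher and 25.4% lower, with a median of 0.18. Of 41 transcribed pseudogenes 8 were higher and 12 lower. The 4063 probe sets with no gene listed had 13.4% higher and 48.3% lower (median -1.47), and their share of non-control signal was 7.0% to 8.12% in the eluates and 13.4% on input. Dim probe sets lay higher on the input array, whose median was 102, and the part of that offset in these classes was not tested. The gene types were counted at the brightest probe set, a choice that can favour the eluates, and its part in their contrast was not tested. The bound mean alone reached the filter in 130 of the 256 lncRNA genes and 1183 of the 1961 probe sets with no gene listed that were called lower. The rest were kept only through input, so their lower calls were built in. The matching count was not made for protein-coding genes, so the contrast in lower calls is not free of this. Of probe sets with no gene listed 44.4% passed the filter, against 64.0% of those with 1 gene.

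**Figure D5:**
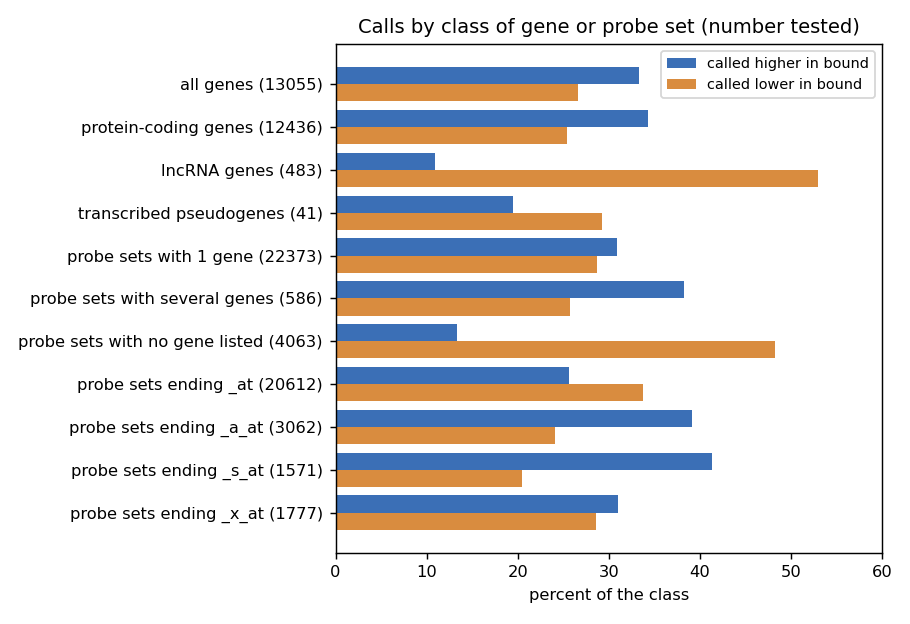
Percent of each class called higher (blue) or lower (orange) in the eluates by limma, for classes of gene (brightest probe set) and of probe set, with the number tested in brackets. The calls include built-in ones, at probe sets kept only through the side where they were high. Long non-coding RNA genes and probe sets with no gene listed have the most lower calls, 53.0% and 48.3%, and the fewest higher calls, 11.0% and 13.4%.

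The span of a gene in the genome, which includes its introns, differed little between the agreeing groups. Its median by RefSeq coordinates was 25.3 kb for the genes all called higher, 25.7 kb for those all called lower, 38.3 kb for those called in both directions and 31.9 kb for all 5643.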

How the data were processed

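Expression was measured in 5 mouse brain RNA samples on Affymetrix arrays. The deposited values are signal intensities on a linear scale, made by the authors with MAS5 per the submitters' processing notes. The MAS5 version was not stated, and detection calls were not used. The trimmed mean was equal on every array, so each had been scaled. The primary comparison added no further scaling.

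Before log2, a pseudocount of 4.18 was added, the overall median of 41.8 over 10. The 64 control probe sets were left out. The filter on low signal kept the 27022 probe sets at or above the 40th percentile of mean log2 signal. Of 45037, 34945 had 1 gene symbol, 932 several and 9160 none listed, which stay unnamed. limma 3.58.1 in R 4.3.3 (lmFit, eBayes with a trend, 3 residual and 7.63 prior degrees of freedom) tested 4 bound arrays against 1 input array, whose variance was assumed equal. Adjusted p-values are Benjamini-Hochberg, with a threshold of 0.05. The number of arrays limits the precision. Percentiles and tables used Python 3.11.15 with pandas 2.3.3. The model was tested on simulated data.

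The members, lists and rules were chosen with earlier results of these data known. Named were the 12 genes per direction with the largest difference at the weakest of at least 2 agreeing probe sets, up to 3 such members per list, the 12 brightest bound genes, 8 in the top 2% of all arrays, 4 with opposite calls, Alyref and the Padi genes. Alternatives changed the pseudocount, filter, scaling, variance model and samples. A gene was represented by its brightest probe set, and differences between probe sets are given in the text. That choice leaned on the eluates, which outnumber the input array.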

Additional observations from a re-analysis of the deposited data

Results flagged for a closer look

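Among 94 sets of 4 bound values, 6 had an array far from the other 3, with a gap over range above Dixon's critical value of 0.829. Chance gives about 1 in 20 such sets. For Stx12 (0.948), non-deiminated replicate 2 had a signal of 412 and the others 630.0 to 645. For Stk32b (0.885), deiminated replicate 1 had 33.9 and the others 44.4 to 45.9. For Nefl (0.839), deiminated replicate 2 had 2821 and the others 3820.1 to 4049.6, and for Cct7 (0.864) it had 3498 and the others 2274 to 2411. Deiminated replicate 2 was also apart in the median percentile of oligodendrocyte markers (0.849), at 91.1 against 93.8 to 94.2, and of oxidative phosphorylation genes (0.860), at 98.3 against 98.6 on the others. It was the far array in 4 of the 6.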

How the results depend on the processing

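Of 16205 probe sets called on the deposited scale, the count stayed within 1.5 times of that under all alternatives but the one with no filter, which called 24502. The genes with all probe sets higher numbered 469. They were 308 with no filter, 785 after quantile normalisation, 808 on percentile ranks, 1356 after median centring and 2927 after scaling to the hybridisation controls. The genes all lower numbered 346. They were 798 with no filter, 146 with the filter at the 60th percentile, 172 after quantile normalisation, 129 on percentile ranks, 10 after median centring and 0 after control scaling. More probe sets were tested with no filter and fewer with the stricter one. Median centring and control scaling shift every log2 difference by one constant each. For quantile normalisation and ranks the cause was not tested. Leaving out each bound array gave 14805 to 18213 called probe sets, 383 to 532 all-higher genes and 297 to 467 all-lower genes. Of the all-lower genes, 30 (8.67%) kept their calls under all alternatives other than median centring and control scaling.

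Over the named differences, 940 values kept direction and side of the threshold, 40 lost the call, 5 gained it and 25 reversed. Among the genes counted as higher, Nefl and Snrpb lost it on ranks and after quantile normalisation, Glul and Pfn2 on ranks, and Snap25, Elavl4, Glul, Mal and Cyfip2 without the variance trend. Among those lower, Itga9, Spata3, Krtap5-1, Rad54l, Cd8a, Hdac7, Ptbp1, Jund (at its dimmer probe set, here and below) and Padi1 lost it after median centring. Rad54l, Cd8a, Jund and Padi1 lost it after quantile normalisation, Spata3, Rad54l, Cd8a, Hdac7, Grin2b, Jund and Padi1 on ranks, and Grin2b without the variance trend. Control scaling turned Prph to 1.72, Paqr5 to 1.96, Itga9 and Fgr to 1.97, Spata3 to 2.0, Stk32b to 2.11, Krtap5-1 to 2.14, Rad54l to 2.17, Cd8a to 2.19, Gm7969 to 2.32, Prss2 to 2.34, Hdac7 to 2.35, Ptbp1 to 3.30, Jund to 2.85, Grin2b to 4.23, Padi1 to 3.01 and Alyref to 4.17. It turned the most negative probe sets of Tob2 to 0.76, Hnrnpab to 0.77, Naa35 to 1.12 and Marcks to 0.45. Median centring turned Grin2b, at its weaker probe set, to 0.23 and Alyref to 0.18. Alyref was 0.21 after quantile normalisation and 3.45 percentile points on ranks. Of 325 list medians with no test, 93 moved by more than the spread between eluates. Values near the pseudocount carry little information, since 13.5% to 18.3% of probe sets on the bound arrays and 0.750% on input were under it. No paired analysis was possible because replicate numbers follow sample order and the input group has 1 array.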
